A study of Mus musculus with 388 samples.

Results

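Chemokines of the CXC family and one scavenger receptor of the family, Ackr3, were followed through single stromal cells of mouse bone marrow. The members are the 7 genes Cxcl12, Cxcl14, Cxcl1, Cxcl2, Cxcl10, Cxcl16 and Ackr3, taken by symbol out of a table of 25000 genes, and all 7 had a count in the cells kept. The cells came from 2-month-old C57BL/6 mice of the genotype KitMerCreMer; R26tdTomato, in which a tamoxifen-activated Cre driven at the Kit gene switches on the tdTomato reporter for good. Tamoxifen was given before birth, at E12.5 and E14.5, to the mice of both groups. Tomato+ cells therefore descend from cells with an active Cre at that time, and Tomato- cells are marrow cells of the same genotype without the label, which can also include descendants of Kit-expressing cells that escaped recombination. Both were sorted as PDGFRα+ cells without CD45, Ter119 and CD31, the surface marks of blood, erythroid and endothelial cells, and each cell was sequenced on its own.

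Of 388 cells, 386 were kept. Cell titles divide them into 2 title orders and 8 sets. Tomato+ cells filled P1 of order 1 with 94 kept cells, P2 of order 1 with 5 and P3 of order 1 with 38, and both P1 and P2 of order 2 with 24 each. Tomato- cells filled N2 of order 1 with 60 cells, and N1 and N2 of order 2 with 71 and 70. The labels name no animal, so each group counts as 1 sample: values below are described with no test, sets are not replicates, and intervals cover counting error only, because reads were counted after amplification without molecular identifiers. Levels are counts per 1000000 counts (CPM) of the summed cells of a group, with exact Poisson 95% intervals. Median totals were 726174 counts in Tomato+ and 637863 in Tomato- cells. All 16 listed markers of Lepr+ marrow stroma were detected in the group sums. Against the CD45 gate, 0 Tomato+ and 12 Tomato- cells, all 12 in order 2, carried 5 or more counts of Ptprc, which encodes CD45. Against the CD31 gate, 13 Tomato+ and 15 Tomato- cells carried 5 or more counts of Pecam1, which encodes CD31.

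CXC chemokines are small secreted proteins that steer leukocytes through receptors on their surface. In the marrow, Cxcl12 from perivascular stroma holds blood stem cells and B cell progenitors in place through Cxcr4. Cxcl1 and Cxcl2 draw neutrophils through Cxcr2 and are induced by NF-kB, Cxcl10 attracts activated T cells through Cxcr3 after interferon, Cxcl16 is made as a transmembrane protein that binds Cxcr6, and Ackr3 takes up Cxcl12 without signalling through G proteins.

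The members are spread over the genome, except for the clustered inducible ligands. In GENCODE M21 on GRCm38, Cxcl1 lies at chr5:90891241-90893115 and Cxcl2 next to it at chr5:90903871-90905938, both on the plus strand, and Cxcl10 on the minus strand at chr5:92346638-92348889. Cxcl12 lies at chr6:117168535-117181367 on the plus strand and Cxcl14 at chr13:56288643-56296551 on the minus strand. Cxcl16 lies at chr11:70453983-70459984 on the minus strand and Ackr3 at chr1:90203980-90216751 on the plus strand. The promoters of the members differ in the motifs they hold. RefSeq promoter sequences on GRCm38.p6 were matched for 6 of the 7 members, and the 250 bases before each start were searched on both strands for the NF-kB consensus, for the interferon response element (GAAA, any 2 bases, GAAA) and for the GC box GGGCGG. The first stretches are the promoters that hold the NF-kB consensus, from base -220 to base -41 before the start, 5′ to 3′ on the strand of the gene. Capitals mark every match to one of these motifs. Cxcl1 lies at chr5:90891025-90891204 on the plus strand, Cxcl2 at chr5:90903679-90903858 on the plus strand and Cxcl10 at chr5:92348930-92349109 on the minus strand.
Cxcl1: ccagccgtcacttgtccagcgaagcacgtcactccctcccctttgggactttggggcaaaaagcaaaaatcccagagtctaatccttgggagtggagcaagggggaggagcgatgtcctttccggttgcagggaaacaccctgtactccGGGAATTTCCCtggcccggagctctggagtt
Cxcl2: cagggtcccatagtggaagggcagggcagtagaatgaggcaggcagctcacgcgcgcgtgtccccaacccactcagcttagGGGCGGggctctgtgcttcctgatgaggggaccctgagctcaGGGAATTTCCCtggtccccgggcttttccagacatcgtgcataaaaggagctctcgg
Cxcl10: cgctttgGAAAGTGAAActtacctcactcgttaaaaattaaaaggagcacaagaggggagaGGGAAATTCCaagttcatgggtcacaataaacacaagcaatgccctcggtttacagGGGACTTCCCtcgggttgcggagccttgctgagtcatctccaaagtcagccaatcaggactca

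The NF-kB consensus was found in these 3 promoters and in no other of the 6. In Cxcl1 and Cxcl2 the matches lie in the stretch GGGAATTTCCC. They are GGGAATTTCC on the strand of the gene and, overlapping it, GGAATTTCCC, which matches on the other strand. The stretch runs from base -71 to -61 in Cxcl1 and from -97 to -87 in Cxcl2. The longest stretch shared by both promoters, GGGAATTTCCCTGG, contains GGGAATTTCCC and occurs in 2 of 32851 mouse promoters of the same length, these 2. Cxcl10 holds 2 separate matches, at -159 to -150 and -103 to -94, and 1 interferon response element at -213 to -204. Cxcl14 holds 1 interferon response element at -172 to -163. Of all 32851 promoters, 3.90% hold the NF-kB consensus and 2.98% the interferon element. A match is a description of letters and does not show binding.

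The Cxcl12 promoter, by contrast, is shown for its GC boxes, the only motif of the search that it holds. Its 250 bases before the start lie at chr6:117168285-117168534 on the plus strand.
Cxcl12: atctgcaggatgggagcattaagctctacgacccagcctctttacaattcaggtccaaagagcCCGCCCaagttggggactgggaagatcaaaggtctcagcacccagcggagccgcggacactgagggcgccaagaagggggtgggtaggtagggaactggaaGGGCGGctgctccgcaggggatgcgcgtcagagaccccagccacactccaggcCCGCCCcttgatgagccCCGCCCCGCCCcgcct
It holds 5 matches in capitals, of which the last 2 overlap by 1 base, while Cxcl2 and Ackr3 hold 1 each. A GC box stands in 32.7% of all promoters.

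Cxcl12 had the highest CPM of all 25000 genes over the kept cells, a rank not corrected for transcript length, and took 4.31% of all counts. Levels of different members are compared here per kilobase of exon and within each title order, since the orders hold the groups in unequal shares. In order 1, Cxcl12 stood at 5154 CPM per kb in Tomato+ and 2751 in Tomato- cells. Its level for order 2 was 6494 CPM per kb in Tomato+ and 5891 in Tomato- cells. Cxcl14 followed with 1016 CPM per kb in Tomato+ and 451 in Tomato- cells of order 1, and with 2360.2 in Tomato+ and 1487 in Tomato- cells of order 2. These 2 homeostatic ligands led in both groups of both orders. The inducible Cxcl1 stood at 259 CPM per kb in Tomato+ and 247 in Tomato- cells of order 1, and at 391.7 in Tomato+ and 349 in Tomato- cells of order 2. Cxcl10 stood at 341 CPM per kb in Tomato+ and 231 in Tomato- cells of order 1, and at 111.3 in Tomato+ and 110.1 in Tomato- cells of order 2. Cxcl10 was thus above Cxcl1 in the Tomato+ cells of order 1 and below it in the other 3 sums. In those Tomato+ cells of order 1, however, 1 cell held 55.2% of the Cxcl10 counts. Cxcl16 was at 10.5 CPM per kb in Tomato+ and 0.856 in Tomato- cells of order 1, and at 15.99 in Tomato+ and 9.89 in Tomato- cells of order 2. Cxcl2 was at 5.35 CPM per kb in Tomato+ and 0.75 in Tomato- cells of order 1, and at 20.2 in Tomato+ and 18.6 in Tomato- cells of order 2. In these sums Cxcl16 and Cxcl2 changed places between the orders, although their counting intervals overlapped in Tomato- cells of order 1, and Ackr3 came last throughout. In each group of each order 1 cell held most of the Cxcl2 counts, as given below, so the place of Cxcl2 rests on single cells.

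Cxcl12 had a count in every one of the 386 cells. Per-cell values ran from 84.1 to 84399.5 CPM with a median of 42780 CPM in Tomato+ cells of order 1, and from 352 to 55917 CPM with a median of 20244 CPM in Tomato- cells of order 1. In order 2 they ran from 489.5 to 90479 CPM with a median of 52603 CPM in Tomato+ cells, and from 210 to 77890.1 CPM with a median of 53549 CPM in Tomato- cells. The 12 cells with Ptprc counts held a median of 374 CPM of Cxcl12 at a median depth of 853826 counts. The 351 cells with neither Ptprc nor Pecam1 counts held a median of 45095 CPM at 673612 counts. The 12 cells ran from 210 to 57352 CPM, and the highest of them also held 7283 CPM of Lepr. Whether the low counts are background or transcripts of those cells was not tested, so a count alone does not show expression of Cxcl12. Over all 386 cells, the 90th percentile of Cxcl12 was 11.04 times the 10th. For Lepr, the leptin receptor that names this stroma, the same ratio was 36.1, for Kitl, which encodes stem cell factor, 44.2, and for Cxcl14 it was 95.1. Cells more than 10-fold under the Cxcl12 median of all cells, a limit of 4495 CPM set after the values were seen, were 11 Tomato+ and 9 Tomato- cells of order 1. They were 8.03% of the Tomato+ cells of that order, with an exact Clopper-Pearson 95% interval of 4.08 to 13.9%, and 15% of its Tomato- cells, with an interval of 7.10 to 26.6%. In order 2 such cells were 1 Tomato+ cell, 2.08% with an interval of 0.0527 to 11.1%, and 14 Tomato- cells, 9.93% with an interval of 5.54 to 16.1%. Of these 14 Tomato- cells, 11 had Ptprc counts and 2 had neither Ptprc nor Pecam1 counts, while none of the 20 such cells of order 1 had Ptprc counts.

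**Figure D1:**
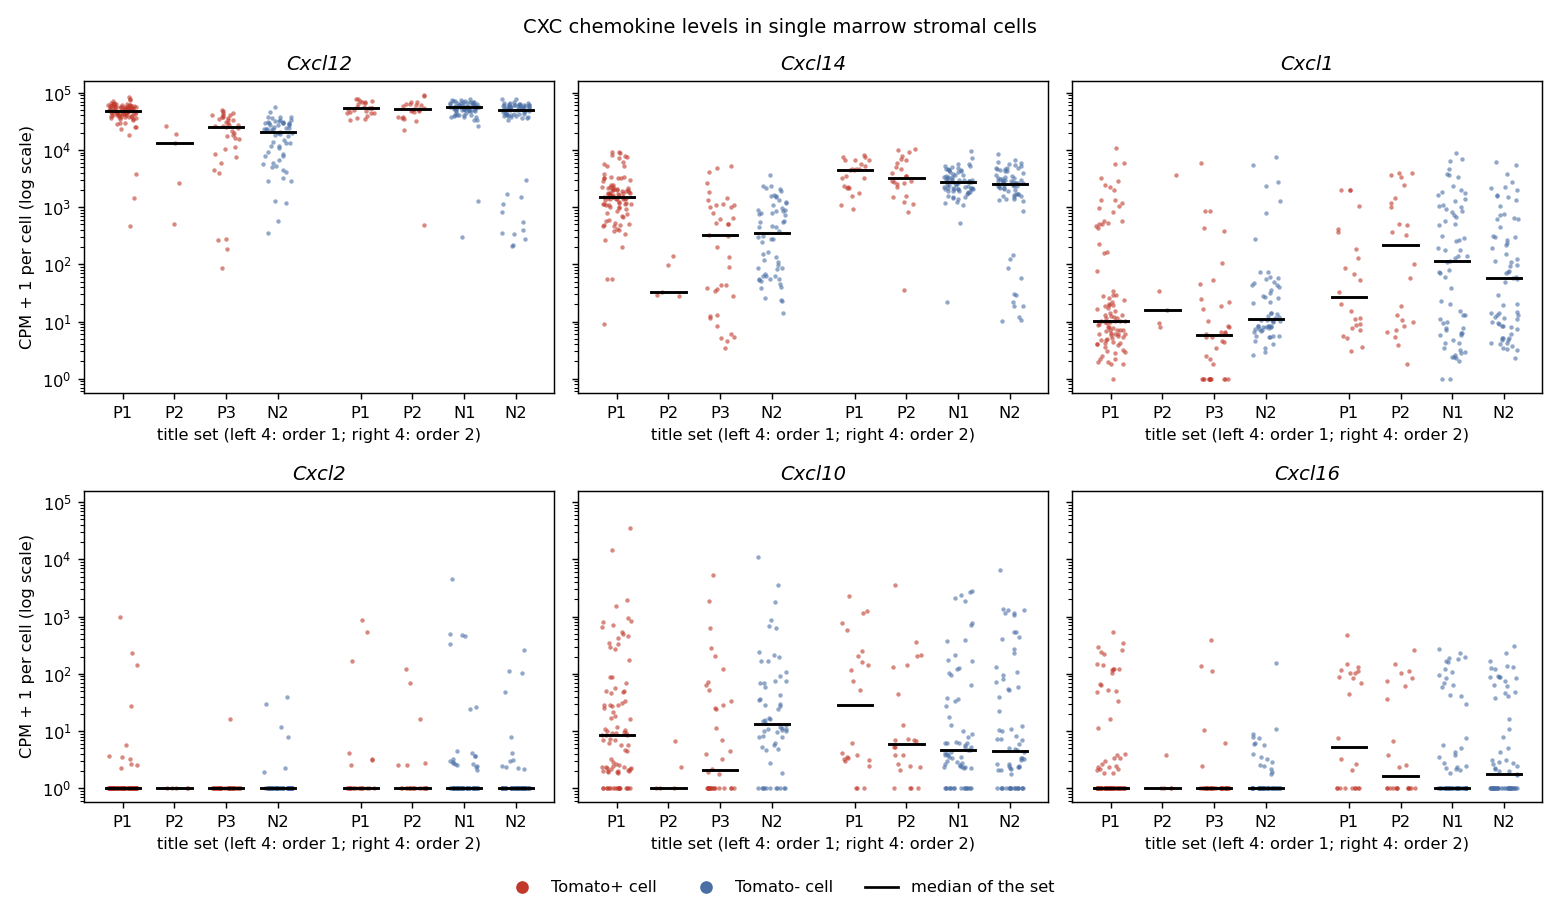
CPM + 1 per cell on a log axis for 6 chemokine genes, by title set, with order 1 on the left of each panel and order 2 on the right. Each point is 1 cell (Tomato+ red, Tomato- blue) and each bar is the median of the set. Cxcl12 forms a narrow band with a separate low tail, Cxcl14 a wider band, and Cxcl1, Cxcl10 and Cxcl16 run over several powers of 10 within each set of at least 20 cells.

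Between the groups, Cxcl12 was higher in Tomato+ than in Tomato- cells of order 1 and close to level in order 2. In order 1 it stood at 42135 CPM (95% interval 42097 to 42173) in Tomato+ and 22489.7 CPM (22438 to 22541) in Tomato- cells, a log2 ratio of 0.91 on the CPM + 1 scale. In order 2 it stood at 53092 CPM in Tomato+ and 48167 CPM in Tomato- cells, a log2 ratio of 0.14. Taken alone, order 1 had 27.1% of 7224 genes more than 1.5-fold higher and 28.6% more than 1.5-fold lower, and order 2 had 11% of 6723 genes more than 1.5-fold higher and 15.7% more than 1.5-fold lower. The gene missed the size rule used here, which asks for more than 1.5-fold in one direction in both orders with at least 20 CPM in the higher group.

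The sets show where the order 1 difference sits. In order 1, Cxcl12 was at 48499.6 CPM in P1, 16618 CPM in P2 and 23250.5 CPM in P3, against 22489.7 CPM in N2. In order 2 it was at 54182 CPM in P1 and 52274 CPM in P2, against 54297 CPM in N1 and 43279 CPM in N2. P1 of order 1 was thus more than 2-fold above N2, and P3, which is also Tomato+, was level with N2 (log2 ratio 0.05). N2 of order 2 was the lowest of its order and also held 10 of the 12 cells with Ptprc counts. Leaving out the cells with Ptprc or Pecam1 counts gave a mean log2 ratio over both orders of 0.47, against 0.52 with all cells, and leaving out P1 of order 1 gave 0.08.

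P1 and N2 of order 1 could also be compared within codes in the column names, called library codes here although the labels do not say what they stand for. Of 12 such codes, 7 held cells of both sets. Cxcl12 was higher in P1 in 7 of 7 codes and more than 1.5-fold higher in all 7, with log2 ratios from 0.80 to 1.87 and a median of 1.33. Of 7178 genes at the level, 2.13% were as consistently higher and 0.111% as consistently lower. Over these codes together the log2 ratio was 1.11. Within order 2, the log2 ratio was -0.0031 for P1 over N1 and 0.27 for P2 over N2. The sets P1 and N2 of order 1 also differ over the whole transcriptome: 26.3% of 7148 genes were more than 1.5-fold higher and 32.3% more than 1.5-fold lower in P1. The labels leave the meaning of the set numbers unsaid, so between P1 and N2 the Tomato label and the set cannot be told apart.

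**Figure D2:**
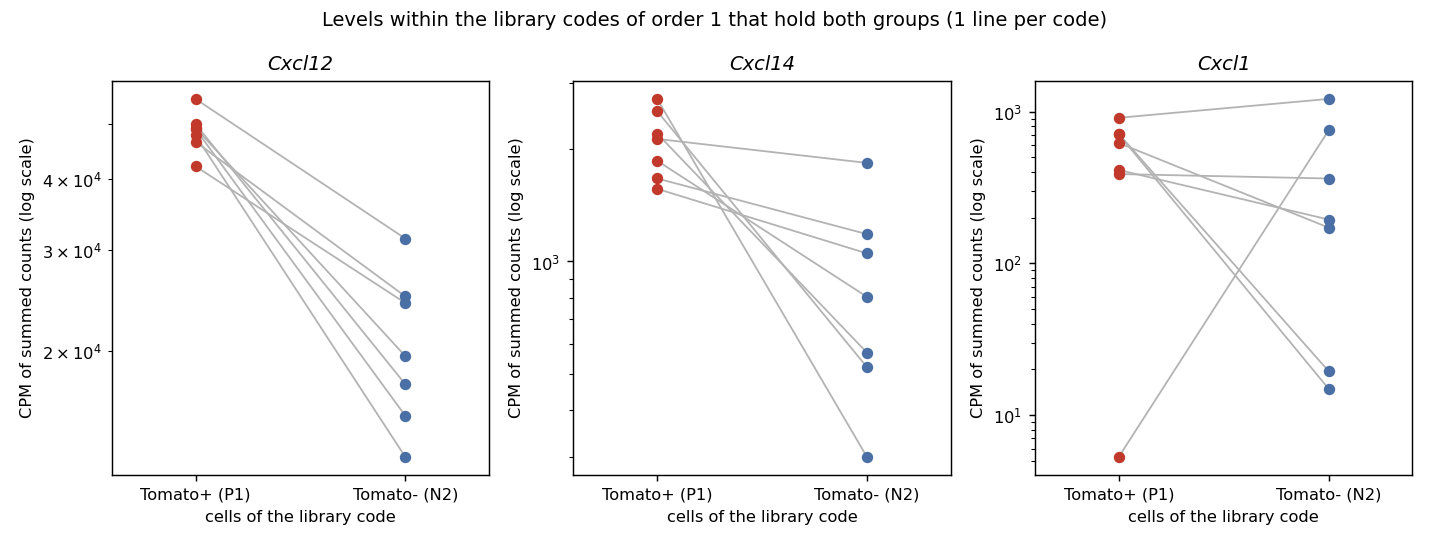
CPM of summed counts (log axis) of Cxcl12, Cxcl14 and Cxcl1 in the 7 library codes of order 1 that hold both Tomato+ cells of set P1 (red, left) and Tomato- cells of set N2 (blue, right), with 1 line per code. The lines of Cxcl12 and Cxcl14 all fall to the right, those of Cxcl1 cross.

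Cxcl14, a homeostatic chemokine of epithelia and stroma, was higher in the Tomato+ cells of both orders. In order 1 it stood at 1857 CPM (1849 to 1865) in Tomato+ and 823.5 CPM (813.7 to 833) in Tomato- cells, a log2 ratio of 1.17. In order 2 it stood at 4312 CPM (4289 to 4335) in Tomato+ and 2716 CPM (2706 to 2727) in Tomato- cells, a log2 ratio of 0.67. Both ratios were above 1.5-fold. By set, Cxcl14 was at 2230.3, 49.1 and 775 CPM in P1, P2 and P3, against 823.5 CPM in N2, in order 1, and at 4606 and 4091 CPM in P1 and P2, against 2953 and 2528 CPM in N1 and N2, in order 2. In order 2 both Tomato+ sets were above both Tomato- sets. In order 1 only P1 was above N2, while P3 was level with it (log2 ratio -0.088) and P2, with 5 cells, was below.

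Within the shared library codes of order 1, Cxcl14 was higher in P1 in 7 of 7 and above 1.5-fold in 4 of them, with log2 ratios from 0.21 to 3.18. For order 2 the log2 ratio was 0.64 for P1 over N1 and 0.69 for P2 over N2. Without the cells that carried Ptprc or Pecam1 counts, Cxcl14 no longer passed the size rule, and its mean log2 ratio over both orders was 0.84, against 0.92 with them. It also missed the rule without P1 of order 1, where the mean was 0.23, without N2 of order 2, where it was 0.86, and with the mean of per-cell CPM in place of sums, where it was 0.98. With all cells summed over both orders the log2 ratio of Cxcl14 was 0.11 and the rule was missed.

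Cxcl16 was the other member past the size rule, at a low level. In order 1 it stood at 31.7 CPM (30.7 to 32.8) in Tomato+ and 2.59 CPM (2.06 to 3.20) in Tomato- cells, a log2 ratio of 3.19. In order 2 it stood at 48.3 CPM (45.9 to 50.8) in Tomato+ and 29.9 CPM (28.8 to 30.995) in Tomato- cells, a log2 ratio of 0.68. In the Tomato- cells of order 1 the gene rested on 85 counts, 81.2% of them in 1 cell. By set, Cxcl16 was at 34.9, 0.459 and 23.99 CPM in P1, P2 and P3, against 2.59 CPM in N2, in order 1, and at 58.6 and 40.6 CPM in P1 and P2, against 27.5 and 31.7 CPM in N1 and N2, in order 2. Every Tomato+ set but the 5 cells of P2 in order 1 was thus above the Tomato- sets of its order.

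Cells with a Cxcl16 count made up 30.7% of the Tomato+ cells of order 1, with an interval of 23.1 to 39.1%, and 28.3% of its Tomato- cells, with an interval of 17.5 to 41.4%. In order 2 they made up 56.3% of the Tomato+ cells, with an interval of 41.2 to 70.5%, and 46.8% of the Tomato- cells, with an interval of 38.4 to 55.4%. With all cells thinned to 150000 counts, and 4 Tomato+ and 13 Tomato- shallower cells left out, the shares were 21.1% of Tomato+ and 9.43% of Tomato- cells in order 1, and 45.8% of Tomato+ and 32.6% of Tomato- cells in order 2. The intervals of the groups overlapped in both orders, thinned or not. The 12 cells with Ptprc counts held a Cxcl16 count in 58.3% of cases, at a median of 0.887 CPM and from 0 to 193.8 CPM. Whether these counts are background or transcripts of those cells was not tested, so a count alone does not show expression of Cxcl16. Cxcl16 was above 1.5-fold higher in P1 than in N2 in 6 of the 7 shared library codes. It missed the size rule without the highest cell of each group and order (mean log2 ratio 2.36, against 1.93 with all cells) and without P1 of order 2 (1.81). It also missed the rule, at 1.56, when the ratio was taken within shared library codes in order 1 and within sets of the same number in order 2.

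With Cxcl14 and Cxcl16, 2 of 7 members passed the size rule as higher in Tomato+ cells and 0 as lower. Of the 7, 5 reached the minimum level in both orders, and Cxcl2 and Ackr3 did not. Of 5865 genes at the level, 2.97% passed as higher and 4.09% as lower. Over the 7 members, those below the level included, the median log2 ratio stood at 0.91 for order 1 and 0.14 for order 2, beside 0.03 for order 1 and -0.0014 for order 2 over the 5865 genes at the level. Under other ways of counting the number higher ranged from 0 to 2. It was 0 without the cells whose Lepr counts were under 1% of those of the highest cell of their pool, where a pool is 1 library code in order 1 and all cells in order 2. There the mean log2 ratio was 0.78 for Cxcl14 and 1.85 for Cxcl16.

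**Figure D3:**
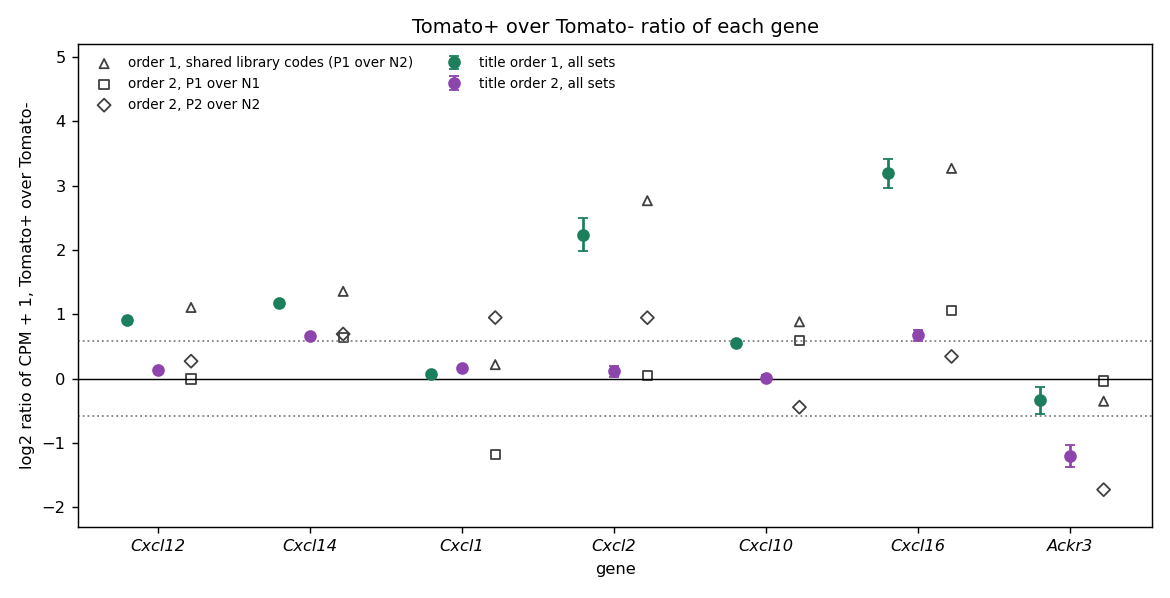
Log2 ratio of CPM + 1, Tomato+ over Tomato-, of the 7 members in order 1 (green) and order 2 (purple), with bars for the 95% counting interval. Open symbols give the ratios within matched sets and dotted lines mark 1.5-fold. Cxcl14 and Cxcl16 lie above the upper dotted line in both orders, and the matched sets of Cxcl1 lie on both sides of 0.

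The inducible neutrophil chemokine Cxcl1 was near level between the groups in both orders. It stood at 486 CPM in Tomato+ and 463 CPM in Tomato- cells of order 1, and at 734 CPM in Tomato+ and 654 CPM in Tomato- cells of order 2 (log2 ratios 0.07 and 0.17). Its sets differed far more than its groups. In order 1, Cxcl1 was at 533, 324 and 344 CPM in P1, P2 and P3, against 463 CPM in N2. In order 2 it was at 359 CPM in P1 and 1017 CPM in P2, against 814.1 CPM in N1 and 526 CPM in N2. The log2 ratio was thus -1.18 for P1 over N1 and 0.95 for P2 over N2, and within the library codes of order 1 it ran from -6.91 to 5.48.

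Few cells carried most of the transcript. The median cell held 8.49 CPM of Cxcl1 in Tomato+ and 10.02 CPM in Tomato- cells of order 1, and 54.4 CPM in Tomato+ and 73.3 CPM in Tomato- cells of order 2, and the highest cell 10689 CPM in Tomato+ and 8826 CPM in Tomato- cells. Over both groups, 50% of the summed per-cell CPM of Cxcl1 lay in 19 cells, 4.92% of the 386. For Cxcl12 the same amount took 33.4% of the cells, and for Cxcl14 19.7%.

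Cxcl10 was held by fewer cells still. Of its summed per-cell CPM, 50% lay in 5 cells. One Tomato+ cell at 34985 CPM held 50.6% of the Cxcl10 counts of its group, and 1 Tomato- cell at 10874 CPM held 23.4% of those of its own. The groups' sums stood at 769 CPM in Tomato+ and 521 CPM in Tomato- cells of order 1, and at 251 CPM in Tomato+ and 248 CPM in Tomato- cells of order 2, while the median cell held 4.66 CPM in Tomato+ and 12.3 CPM in Tomato- cells of order 1, and 5.51 CPM in Tomato+ and 3.65 CPM in Tomato- cells of order 2. By set, Cxcl10 was at 867, 0.918 and 509 CPM in P1, P2 and P3, against 521 CPM in N2, in order 1, and at 306 and 209 CPM in P1 and P2, against 202 and 284 CPM in N1 and N2, in order 2. Without the highest cell of each group and order, the mean log2 ratio was 0.20, against 0.29 with them.

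Cxcl2 stood at 11.1 CPM in Tomato+ and 1.55 CPM in Tomato- cells of order 1, and at 41.7 CPM in Tomato+ and 38.4 CPM in Tomato- cells of order 2. In order 1 it missed the minimum of 20 CPM, and 1 cell held 78.8% of the Tomato+ counts and 1 cell 86.3% of the Tomato- counts. In order 2 one cell held 59.95% of the Tomato+ and another 59.9% of the Tomato- counts. Of the 386 cells, 322 had no Cxcl2 count, and 2 cells held over 50% of the per-cell CPM. Cxcl2 shares 7.59% of its 31-base words with Cxcl3, a gene at 0 in all cells, so reads could be split between those copies. No other member shared a 31-base word with another member or with Cxcl3.

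**Figure D4:**
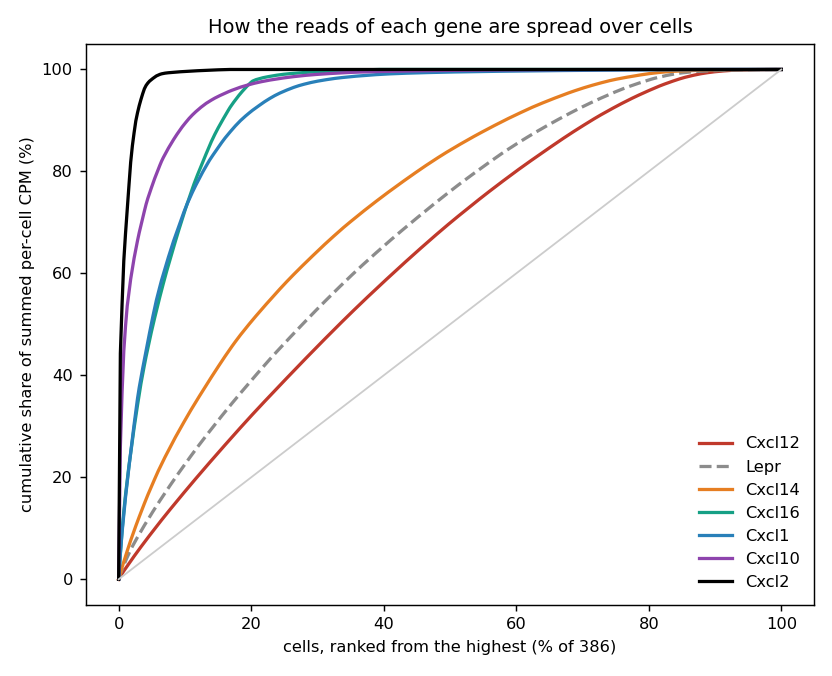
Cumulative share of the summed per-cell CPM (percent) against cells ranked from the highest (percent of 386), with 1 line per gene and Lepr dashed for comparison. Cxcl12 lies nearest to the diagonal of even spread, Cxcl14 lies above Lepr, and Cxcl1, Cxcl16, Cxcl10 and Cxcl2 climb within the first few cells.

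The receptor that scavenges Cxcl12 was close to absent. Ackr3 had counts in 5 cells, 1 Tomato+ and 4 Tomato-, and 89.2% of its counts stood in 1 Tomato- cell of N2 in order 2. That cell held 162.8 CPM of Ackr3, 1113 CPM of Cxcl12 and 206 CPM of Lepr, 355 CPM of Pdgfra, which encodes the sorted surface receptor, and 387 CPM of Cd34, a marker of blood progenitors, endothelium and some fibroblasts. The next cell, of N2 in order 1, had 9 counts, with 4551 CPM of Ly6a, which encodes Sca-1, 273 CPM of Lepr and 2815 CPM of Cxcl12. The remaining 3 cells had 3, 1 and 1 counts. In the Tomato+ cells of order 2 a count of 0 allows a level of up to 0.0965 CPM, taken as 3 counts of their summed total, while over both orders the cells with a count were 0.541% of the Tomato+ group, with an interval of 0.0137 to 2.97%, and 1.99% of the Tomato- group, with an interval of 0.545 to 5.02%.

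Across cells, Cxcl12 and Cxcl14 formed a homeostatic pair, and Cxcl1, Cxcl10 and Cxcl2 a looser inducible group that was not clearly apart from Cxcl14. Correlations were taken on log2(CPM + 1) within each of the 7 sets of at least 20 cells (381 cells) and averaged. Cells of a set are not independent samples and differ in depth, so the values are descriptions. The mean r with the log2 total counts of the cell was 0.02 for Cxcl12, 0.14 for Cxcl14, -0.07 for Cxcl1 and 0.08 for Cxcl10. Cxcl12 and Cxcl14 had a mean Pearson r of 0.60, from 0.02 to 0.96 over the sets, with a mean Spearman rho of 0.31. Without the cells with Ptprc or Pecam1 counts the mean r was 0.41, from -0.29 to 0.72. Cxcl1 and Cxcl10 had a mean r of 0.28, from -0.02 to 0.55, above 0 in 6 of 7 sets. Cxcl1 and Cxcl2 had a mean r of 0.18 and were above 0 in 7 of 7 sets. Between the pair and the group, r was -0.04 for Cxcl12 with Cxcl1, 0.0066 with Cxcl10 and -0.05 with Cxcl2. For Cxcl14 it was 0.09 with Cxcl1, 0.11 with Cxcl10 and -0.02 with Cxcl2, beside 0.12 for Cxcl2 with Cxcl10 inside the group. Cxcl16 fell in neither, at 0.15 with Cxcl12, 0.11 with Cxcl14, 0.14 with Cxcl1, 0.04 with Cxcl10 and -0.06 with Cxcl2.

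Overlaps of the cells that held each member were also counted. With counts under 1% of those of the highest cell of the same pool set aside, 35.2% of all cells held Cxcl1 and 22.02%, or 85 cells, held Cxcl10. Both were held by 46 cells, which is 33.8% of the Cxcl1 cells and 54.1% of the Cxcl10 cells. Of the 24 cells with Cxcl2, 12 held Cxcl1, 50% of the Cxcl2 cells and 8.82% of the Cxcl1 cells. Of 99 cells with Cxcl16, 51 held Cxcl1, 51.5% of the Cxcl16 cells and 37.5% of the Cxcl1 cells. The overlap with Cxcl1 was thus about as large for Cxcl16 as for Cxcl10 and Cxcl2. Of the same 99 cells, 98 held Cxcl12, which by the same rule 91.7% of all cells held.

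The genes most like each member were taken among 6040 genes. Closest to Cxcl12 were Esm1 (mean r 0.71), Gas6 (0.71), Fbln5 (0.70), Gdpd2 (0.69), Chrdl1 (0.67), Adipoq (0.66), Agt (0.64) and C4b (0.62). Esm1 encodes a secreted proteoglycan, Gas6 a ligand of the TAM receptors, Fbln5 an elastic fibre protein, Chrdl1 a BMP antagonist, Adipoq adiponectin and Agt angiotensinogen. Closest to Cxcl14 were Fbln5 (0.62), Kng1 (0.60), Bgn (0.59), Igfbp4 (0.59), Tmem176a (0.59), Serpine2 (0.57), C4b (0.56) and Serping1 (0.56). Bgn encodes biglycan, Igfbp4 a binding protein of insulin-like growth factors, and Serpine2 and Serping1 protease inhibitors. Fbln5 and C4b, a complement component, stood in both lists. The median over all compared genes was 0.03 for Cxcl12 and 0.04 for Cxcl14, and the 99th percentiles 0.43 for Cxcl12 and 0.40 for Cxcl14. Without the cells with Ptprc or Pecam1 counts, the mean r of these genes ran from 0.48 for C4b to 0.62 for Fbln5 with Cxcl12. With Cxcl14 it ran from 0.32 for Serping1 to 0.48 for Igfbp4, and was 0.37 for Bgn, 0.35 for Tmem176a, 0.35 for C4b and 0.34 for Serpine2.

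Closest to Cxcl1 were Nfkbia (mean r 0.35), Tnfaip3 (0.33), Ifrd1 (0.32), Ppp1r15a (0.31), Fosb (0.30), Kdm6b (0.29), Csrnp1 (0.29) and Nfil3 (0.29). Nfkbia and Tnfaip3 encode feedback inhibitors of NF-kB and are NF-kB targets themselves, and Fosb is an immediate early gene. Closest to Cxcl10 were Myc (0.28), Nfkbia (0.28), Zfp36l1 (0.26), Gbp2 (0.26), Nr4a2 (0.26), Plk2 (0.25), Adsl (0.25) and Nfil3 (0.25). Gbp2 encodes a guanylate binding protein induced by interferon. Nfkbia and Nfil3 stood in both lists. Medians over all genes were -0.00080 for Cxcl1 and 0.0016 for Cxcl10, and the 99th percentiles 0.19 and 0.17.

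By list, Cxcl1 had a mean r above 0 with 17 of 18 genes of the NF-kB response list (median 0.13), 7 of them in every set. The share of all 6040 compared genes above 0, or above 0 in every set, was not taken. Their median r was -0.00080 for Cxcl1, 0.0016 for Cxcl10, 0.03 for Cxcl12 and 0.04 for Cxcl14. Many of all genes are therefore above 0, and a list count above 0 says little without that share. With the 15 interferon response genes that could be compared, its median was -0.0039 and 7 were above 0, among them Irf1 at 0.27. Cxcl10 was above 0 with 18 of 18 NF-kB genes (median 0.12) and with 13 of 15 interferon genes (median 0.12), led by Gbp2 and by Irf1 at 0.24. This was not particular to Cxcl10. Cxcl14 was above 0 with 14 of 15 interferon genes (median 0.10), also led by Gbp2 (0.19), and with 14 of 18 NF-kB genes (median 0.07). Of the interferon genes, 12 of 15 were above 0 with Cxcl12 (median 0.05). Cxcl12 was above 0 with 15 of 15 stroma markers (median 0.44) and with 8 of 9 genes of its regulator list (median 0.23), among them the transcription factors Runx1 (0.36), Ebf1 (0.34) and Ebf3 (0.28). With the NF-kB list its median was -0.01, and the highest there were the stroma genes Csf1 (0.43) and Vcam1 (0.42).

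**Figure D5:**
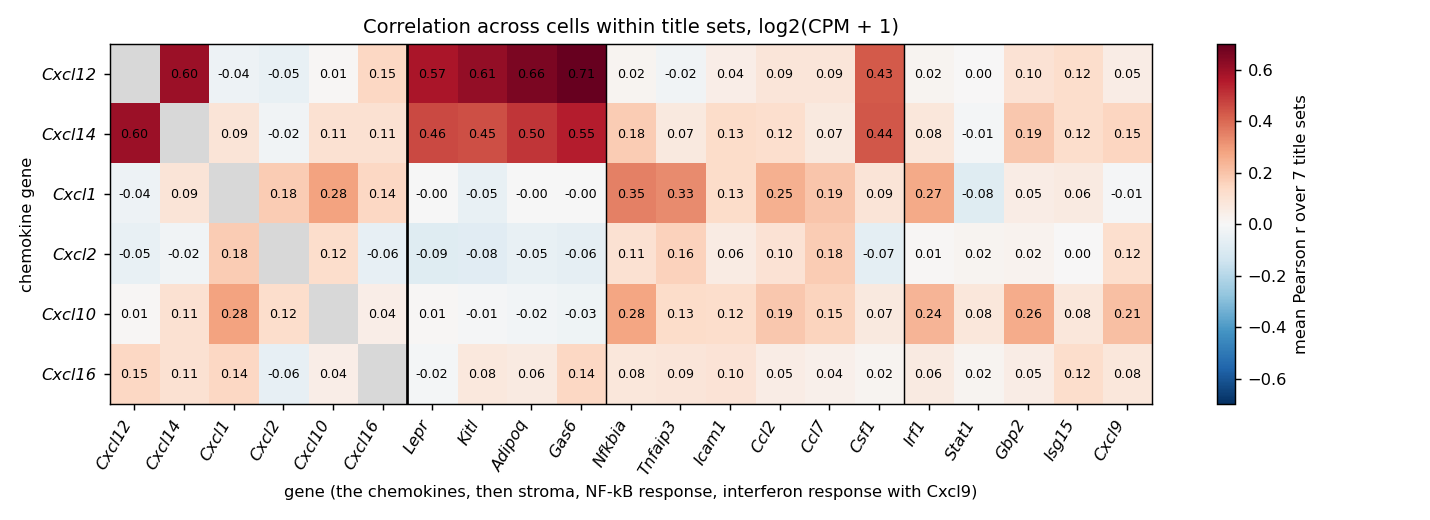
Mean Pearson r over 7 title sets (colour and number) of 6 chemokine genes (rows) with each other and with stroma, NF-kB response and interferon response genes (columns). Cxcl12 and Cxcl14 share high values with each other and with Lepr, Kitl, Adipoq and Gas6. Cxcl1 has its highest values with Nfkbia and Tnfaip3, and Cxcl10 with Cxcl1 and Nfkbia.

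Few other genes of the pathway passed the same rule, which few of all genes did. Of 5865 genes at the level, 2.97% passed as higher and 4.09% as lower, so counts of 0 in short lists say little about the lists. Of 10 genes for binding and processing of Cxcl12 and Cxcl16, 9 reached the level and 0 passed in either direction. Adam10, a protease that sheds Cxcl16, stood at 54.7 CPM in Tomato+ and 100.1 CPM in Tomato- cells of order 1, and at 68.7 CPM in Tomato+ and 102.3 CPM in Tomato- cells of order 2 (log2 ratios -0.86 and -0.57). One cell held 31.3% of the Adam10 counts of Tomato- cells in order 1. Adam17, another protease of the same list, went otherwise. It was at 70.97 CPM in Tomato+ and 73.6 CPM in Tomato- cells of order 1 (log2 ratio -0.05). In order 2 Adam17 was at 128.5 CPM in Tomato+ and 65.1 CPM in Tomato- cells (log2 ratio 0.97). Of 10 regulators of Cxcl12 in stroma, 9 reached the level and 0 passed. Of 18 NF-kB response genes, 17 reached the level. Among them Ccl7, a monocyte chemokine, passed as higher and Ptgs2, which encodes cyclooxygenase 2, as lower. That list had a median log2 ratio of 0.56 for order 1 and 0.19 for order 2. Of 18 interferon response genes, 11 reached the level and 0 passed, with list medians of -1.06 in order 1 and -0.0049 in order 2.

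Markers of other cell types also differed between the groups. Summed over 12 myeloid markers, the level was 50.8 CPM in Tomato+ and 99.5 CPM in Tomato- cells of order 1, and 98.9 CPM in Tomato+ and 15332 CPM in Tomato- cells of order 2, where Ptprc was at 0.129 CPM in Tomato+ and 42.2 CPM in Tomato- cells. Ptprc was at 0 in both groups of order 1. Of these 12, 2 reached the level, Fcer1g and Cd53, and both passed the size rule as lower in Tomato+ cells. One cell held 99.4% of the Cd53 counts of Tomato- cells in order 1. The median log2 ratio over the 12 was 0.16 in order 1 and -5.13 in order 2, so the list as a whole was not lower in order 1. Summed over 10 endothelial markers, the level was 260.4 CPM in Tomato+ and 35.7 CPM in Tomato- cells of order 1, and 289 CPM in Tomato+ and 23.2 CPM in Tomato- cells of order 2, and 3 passed as higher, Kdr, Emcn and Cldn5. One cell held 61.003% of the Kdr, 1 cell 36.1% of the Emcn and 1 cell 70.7% of the Cldn5 counts of Tomato+ cells in order 1. In order 2, 1 Tomato+ cell held 99.9% of the Kdr counts, 1 held 95.5% of the Emcn counts and 1 held every Cldn5 count. Over 9 pericyte markers the summed level was 178.3 CPM in Tomato+ and 1207 CPM in Tomato- cells of order 1. In order 2 it was 54.98 CPM in Tomato+ and 91.3 CPM in Tomato- cells, and Abcc9 passed as lower. One cell held 39.8% of the Abcc9 counts of Tomato- cells in order 1. Rgs5 alone was at 36.3 CPM in Tomato+ and 937 CPM in Tomato- cells of order 1. Kcnj8, of the same list, went the other way, at 81.6 CPM in Tomato+ and 6.87 CPM in Tomato- cells of order 1. In order 2 Kcnj8 was at 14.5 CPM in Tomato+ and 0.0215 CPM in Tomato- cells. Without the cells with Ptprc or Pecam1 counts, Cxcl16 passed the size rule and Cxcl14 did not. The part of pericytes in these differences was not tested.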

How the data were processed

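Per the labels' protocols, single cells were lysed, reverse transcribed and amplified before sequencing. The deposited table holds expected counts, which need not be whole: per the file's values, 4.91% of those above 0 are not. HTSeq 0.6.0, StringTie 1.3.3b, HISAT and the build GRCm38 stand in the submitters' processing notes; what each was used for, and the strand setting, were not stated in the labels. Column names gave each column's group, title order, set and library code, never a single title; 0 columns were unused. Here counts were rounded to whole numbers and a cell was kept from 1000 genes and 10000 counts upward, which left 185 Tomato+ and 201 Tomato- cells. The 2 left out held 7927 and 4014 counts. No doublet caller was run. Ratios are log2 of CPM + 1 of summed cells, with Python 3.11.15, pandas 2.3.3 and scipy 1.17.1; factors of edgeR 4.0.16 (TMM) and DESeq2 1.42.0 served as alternatives only. The ratio, size rule and correlation were checked on simulated data. All 7 members are named, with list genes past the size rule, up to 3 of the highest per list, and the 8 most correlated genes of each member counted in at least 50% of cells, among genes of at least 20 CPM counted in at least 20% of cells, without mitochondrial, ribosomal protein and predicted genes. Adam10, Adam17, Cxcr4 and the correlation examples from lists were added after their values were seen. Members and lists were chosen with earlier results of these data known. Alternatives changed the pseudocount, scaling, cell filter, level minimum, cells and sets, and are given under the processing part. Totals of kept cells ran from 18031 to 3833473 counts. Exon lengths and symbols come from GENCODE M21 on GRCm38, promoters from RefSeq.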

Additional observations from a re-analysis of the deposited data

How the results depend on the processing

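The number of members higher in Tomato+ cells, 2 as reported, was 1 with the mean of per-cell CPM, without cells with Ptprc or Pecam1 counts, without set P1 of order 1 and without set N2 of order 2 (Cxcl16 each time). It was 1 without the highest cell of each gene, without set P1 of order 2 and within shared library codes in order 1 and sets of the same number in order 2 (Cxcl14 each time), and 0 without cells under 1% of the pool maximum of Lepr. The number lower, 0 as reported, was 1 with all cells summed over both orders (Cxcl2), where the 2 higher were Cxcl10 and Cxcl16 and Cxcl14 was lost. Not all of the 24 alternatives give a mean over both orders. The lowest value of Cxcl12 is P3 alone over N2 of order 1, and that of Cxcl16 is all cells summed over both orders. The highest value of each is the median over shared library codes of order 1. Over the 24, the log2 ratio ran from 0.05 to 1.33 for Cxcl12 and from 0.62 to 4.58 for Cxcl16, above 0 in all 24 of each. For Cxcl14 it ran from -0.088 to 1.44, and it was reversed, at -0.088, with set P3 alone over N2 of order 1. Cxcl1 was above 0 in 16 and below 0 in 8 of 24. The cause of these changes was not tested. Leaving out N2 of order 1 leaves order 2 alone. The comparisons of P1 or P3 alone, of per-cell medians, of library code medians and without Lepr-low cells were chosen after seeing the data. No paired analysis was possible because the columns carry no replicate numbers and each group is 1 sample, and the ratios within shared library codes match cells by code, not by replicate.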

Other observations

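Cxcl9, the interferon-induced sister of Cxcl10 at the same receptor, was the highest of the other 9 CXC ligands. It stood at 545 CPM in Tomato+ and 654 CPM in Tomato- cells of order 1, and at 66.5 CPM in Tomato+ and 93.5 CPM in Tomato- cells of order 2, and did not pass the size rule. Its mean r with Cxcl10 was 0.21, from -0.25 to 0.59 over the 7 sets. Cxcl3 and Cxcl11 were at 0 in all cells. Of the 9, 1 reached the level in both orders and 0 passed in either direction.

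Among the 10 CXC and atypical chemokine receptors, Ackr4, a scavenger of Ccl19, Ccl21 and Ccl25, had the highest level. It stood at 308 CPM in Tomato+ and 305 CPM in Tomato- cells of order 1, and at 112.5 CPM in Tomato+ and 64.6 CPM in Tomato- cells of order 2 (log2 ratios 0.02 and 0.79). Ackr1, a chemokine-binding receptor of venular endothelium and erythroid cells, was the 1 receptor past the size rule, as higher in Tomato+ cells: 41.8 CPM in Tomato+ and 0.0912 CPM in Tomato- cells of order 1. In order 2 it stood at 29.3 CPM in Tomato+ and at 0 counts in Tomato- cells. One cell held 84.1% of the Tomato+ counts of Ackr1 in order 1 and 1 cell 99.1% in order 2. Cxcr4, the signalling receptor of Cxcl12, had 0 counts in Tomato+ cells of both orders and 0.839 CPM in Tomato- cells of order 2.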
